A study of Mus musculus with 20 samples.

Results

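The contacts described here are those of induced pluripotent stem (iPS) cells grown in 2i medium, set against those of embryonic stem (ES) cells grown in the same medium. The assay was 5C, chromosome conformation capture carbon copy, and each group had 2 libraries. Members were pairs of a forward and a reverse primer within 1 region, with a mean of at least 10 counts over the 10 5C libraries of the series. Of 97243 possible pairs, 96467 had a count in some library and 75889 met that minimum. The series holds 20 libraries, 10 of 5C and 10 of RNA, from ES cells, primary neural progenitor cells (NPC) and iPS cells. ES cells were the male line V6.5 (129SvJae x C57BL/6), in medium with leukaemia inhibitory factor (LIF) or in 2i. The iPS cells were made from NPC, carried Sox2-eGFP on the same labelled strain background, and were grown in serum with LIF or moved to 2i after reprogramming. NPC came from mice at postnatal day 1. The labels do not say how many iPS clones were used, and line, Sox2-eGFP genotype and reprogramming history cannot be told apart in the iPS to ES comparison. Feeder fibroblasts supported both pluripotent cell kinds before passages on gelatin. Nothing states that replicates were separate cultures, and the spread behind each p-value may therefore be technical.

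In 5C, fixed chromatin is cut with the restriction enzyme HindIII and ligated, and a pair of primers gives a product where the ends of their fragments were joined. Contacts fall with distance along the chromosome, and a value is informative when it is read against other pairs at the same distance. Promoters of pluripotency genes are known to lie near distal enhancers in ES cells, such as the Sox2 control region downstream of Sox2. The 2i medium lacks serum and combines LIF with the inhibitors CHIR99021 and PD0325901, which act on the kinases GSK3 and MEK, and it is known to hold mouse pluripotent cells in a naive state.

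The 20 kb windows of the Sox2, Klf4, Nanog and Pou5f1 starts anchor the contacts that were set out for the pluripotency genes. The 250 bases before the first RefSeq start listed for each gene (GRCm38.p6) are shown with short motifs in capitals. Capitals mark AAGCTT, the HindIII site that bounds 5C fragments, ATGCAAA or its reverse TTTGCAT, the core of the octamer bound by the Pou5f1 protein, and GGGCGG or its reverse CCGCCC, the GC box. Both strands were searched. Of 32851 promoters of the same length, 6.22% held AAGCTT, 4.12% held the octamer core and 32.7% held the GC box.
Sox2, chr3:34649745-34649994, plus strand: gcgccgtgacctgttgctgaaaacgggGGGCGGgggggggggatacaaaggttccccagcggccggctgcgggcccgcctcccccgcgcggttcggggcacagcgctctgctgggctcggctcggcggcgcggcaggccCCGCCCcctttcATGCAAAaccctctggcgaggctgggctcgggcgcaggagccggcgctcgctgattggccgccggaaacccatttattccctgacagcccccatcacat
Klf4, chr4:55532476-55532725, minus strand: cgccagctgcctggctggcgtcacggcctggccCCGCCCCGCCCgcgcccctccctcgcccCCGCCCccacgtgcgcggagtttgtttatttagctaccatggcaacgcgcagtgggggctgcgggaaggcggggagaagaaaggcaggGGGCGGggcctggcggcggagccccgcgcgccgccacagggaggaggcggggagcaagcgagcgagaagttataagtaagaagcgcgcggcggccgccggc
Nanog, chr6:122707239-122707488, plus strand: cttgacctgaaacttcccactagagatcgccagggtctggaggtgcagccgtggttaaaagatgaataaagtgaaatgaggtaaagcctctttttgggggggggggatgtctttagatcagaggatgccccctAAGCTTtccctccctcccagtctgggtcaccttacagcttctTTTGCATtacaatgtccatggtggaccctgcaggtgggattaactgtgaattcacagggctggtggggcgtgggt
Pou5f1, chr17:35505782-35506031, plus strand: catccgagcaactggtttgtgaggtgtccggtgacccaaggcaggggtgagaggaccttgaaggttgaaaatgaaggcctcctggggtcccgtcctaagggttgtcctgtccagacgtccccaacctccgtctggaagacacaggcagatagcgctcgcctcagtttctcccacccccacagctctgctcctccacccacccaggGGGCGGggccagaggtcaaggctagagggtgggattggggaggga
Nanog was the only one of these 4 stretches with a HindIII site, 117 bases before the gene start, so a fragment border of the assay falls inside it. Nanog and Pou5f1 each have a second listed start, not shown. The same HindIII site lies 193 bases before the second Nanog start. Sox2 and Nanog each held 1 octamer core, and Klf4 held 4 GC boxes. These matches are descriptions of the letters. All further positions are in mm9, the build of the 5C files, and are not set against these sequences.

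The 4 libraries in 2i held 10508118 to 14201950 counts, and the 6 others 12177594 to 26533530. The share of counts that joined primers of different regions was 8.14% and 8.01% in the replicates numbered 1 of ES 2i and iPS 2i, and 16.2% and 17.6% in the replicates numbered 2. This split followed the replicate number and not the cell kind, so differences are also given within each number. The coefficient of variation between replicates was 0.326 for single pairs, 0.188 for sums over pairs of 20 kb windows, 0.147 for the total of a fragment over its partners and 0.110 for distance bands. Of the 75889 pairs, 75046 had a count in all 4 libraries in 2i.

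Which contacts separate iPS cells from ES cells once both are in 2i was asked first at the level of single pairs and of 20 kb windows, each against the expected count of its library, region and distance. No pair passed. edgeR's quasi-likelihood test called 0 of 75889 pairs at an adjusted p of 0.05 (0%), with 3905 pairs under an unadjusted p of 0.05 (5.15%), of which 2520 were higher in iPS 2i and 1385 lower. DESeq2 called 2 pairs. The sums over windows gave the same outcome, with 0 of 10916 window pairs called by edgeR (0%) and 10 by DESeq2. Under an unadjusted p of 0.05 lay 903 window pairs (8.27%), 415 higher and 488 lower in iPS 2i. The lowest adjusted p was 0.55 for windows and 0.96 for pairs.

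The absence of calls does not show that the cell kinds were alike, and the intervals say how large a difference could be hidden. For window pairs the 95% interval reached a median of 0.54 to either side on the log2 scale. It lay within a doubling and a halving for 7286 window pairs, 66.7% of those tested, and for 15.4% of the single pairs. The Sox2 region was the most tightly bounded of the 6 large regions, with 89.4% of its 1275 window pairs inside those limits, and the Nanog region the least, with 52.9% of 1287. The median absolute log2 difference between the group means in 2i was 0.22 over window pairs. Replicates of iPS 2i differed from each other by a median of 0.27 and those of ES 2i by 0.26, and single libraries spread more than means of 2. In serum the same measure between iPS and ES was 0.34. The 2 libraries of a 2i group did not overlap with those of the other group for 4251 window pairs, 38.9% of those tested. The same-numbered differences had 1 sign for 61.6% of window pairs.

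Contacts of the pluripotency genes were read at landmark window pairs, in counts scaled to equal expected counts over the 10 libraries. At the window of the Sox2 start (chr3:34547374-34567373) and the window 110 kb downstream, where the Sox2 control region lies (chr3:34647374-34667373), the scaled count was 9624 and 7292 in ES 2i and 8562 and 6632 in iPS 2i. The groups overlapped, and iPS 2i stood at 0.898 times ES 2i, with an interval of 0.650 to 1.24. The fragment that holds the Sox2 start (chr3:34546432-34549386) was not among those tested, so these counts came from other fragments of the window. The value in serum was 4818 and 3658 in ES and 3823 and 3944 in iPS cells, and in NPC 2876 and 1665.
At Klf4 and the enhancers 60 kb downstream of it (chr4:55536446-55556445 with chr4:55476446-55496445), scaled counts were 3479 and 2830 in ES 2i and 2880 and 2005 in iPS 2i. The higher iPS 2i library lay above the lower ES 2i library, so the groups overlapped. The fold of iPS 2i over ES 2i was 0.774, with an interval of 0.582 to 1.03 and an edgeR adjusted p of 0.63. Klf4 encodes a zinc finger factor used in reprogramming.
Nanog encodes a homeodomain factor of the naive state, and the model at its start is named Nanogpd in the files. The start and the window 60 kb downstream (chr6:122646812-122666811 with chr6:122706812-122726811) had the largest difference of the 11 landmarks. Scaled counts were 10583 and 9985 in ES 2i and 7161 and 7846 in iPS 2i, with no overlap. The fold was 0.730 (interval 0.592 to 0.900, edgeR adjusted p = 0.55). For the window 45 kb upstream of Nanog, ES 2i had 8184 and 7907 and iPS 2i 6630 and 7163, again without overlap, at a fold of 0.857 (0.701 to 1.05).

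Nes, which encodes an intermediate filament of neural progenitors, and Bcan, a proteoglycan gene beside it, had 2489 and 2632 scaled counts between their start windows in ES 2i and 2234 and 1641 in iPS 2i. The iPS 2i libraries lay below both ES 2i libraries, and the fold was 0.756 (0.591 to 0.969, edgeR adjusted p = 0.57). NPC stood apart from all of these at 4420 and 4200. The fragment of the Bcan start (chr3:87798418-87804589) gave none of these counts. Fragments were placed by their midpoint, and this fragment fell in the window before. The Nes window rested on the Nes start fragment alone (chr3:87759491-87793437), which is 33.9 kb long and also overlaps Bcan. Between Olig1 and Olig2, neighbouring genes of oligodendrocyte lineage factors, ES 2i had 4697 and 4553 and iPS 2i 4707 and 3735, while NPC had 16201 and 12765. The 2i groups overlapped there, with a fold of 0.913 (0.723 to 1.15).
Crabp2, a gene for a retinoic acid binding protein, and Lmna, the gene of the A-type lamins, had 215 and 232 scaled counts in ES 2i and 174 and 190 in iPS 2i. No library of one group reached the other, at a fold of 0.815 (0.572 to 1.16). The other 4 landmarks joined Olig2 with Urb1, Klf4 with Zfp462, Klf4 with Rad23b and Nes with Crabp2, and their folds ran from 0.760 to 1.06 with overlapping groups. The start fragments of Nes, Crabp2, Lmna, Olig1, Olig2, Klf4 and Rad23b all had reverse primers, and only forward-reverse pairs were counted. Nes to Crabp2, Crabp2 to Lmna, Olig1 to Olig2 and Klf4 to Rad23b thus held no count that joined the 2 start fragments. The Zfp462 start lay on no fragment with a primer. Across the 11 landmarks, 10 were lower and 1 was higher in iPS 2i, 0 passed the adjusted test and 2 had an unadjusted p under 0.05. Groups did not overlap at 4 of the 11, a share of 36.4% beside 38.9% over all window pairs. The interval lay within a doubling and a halving for 10 of them. The direction depended on the scaling: with the totals of both primers added to the expected count, 3 were lower and 8 higher, from -0.24 to 0.29 on the log2 scale, and 7 had changed sign. Sox2 to 110 kb downstream also changed sign without ES 2i replicate 1 or iPS 2i replicate 2 (0.059 and 0.018), Olig1 to Olig2 without iPS 2i replicate 2 (0.025), and Nes to Crabp2 and Olig2 to Urb1 without ES 2i replicate 2 (0.15 and -0.049).

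**Figure D1:**
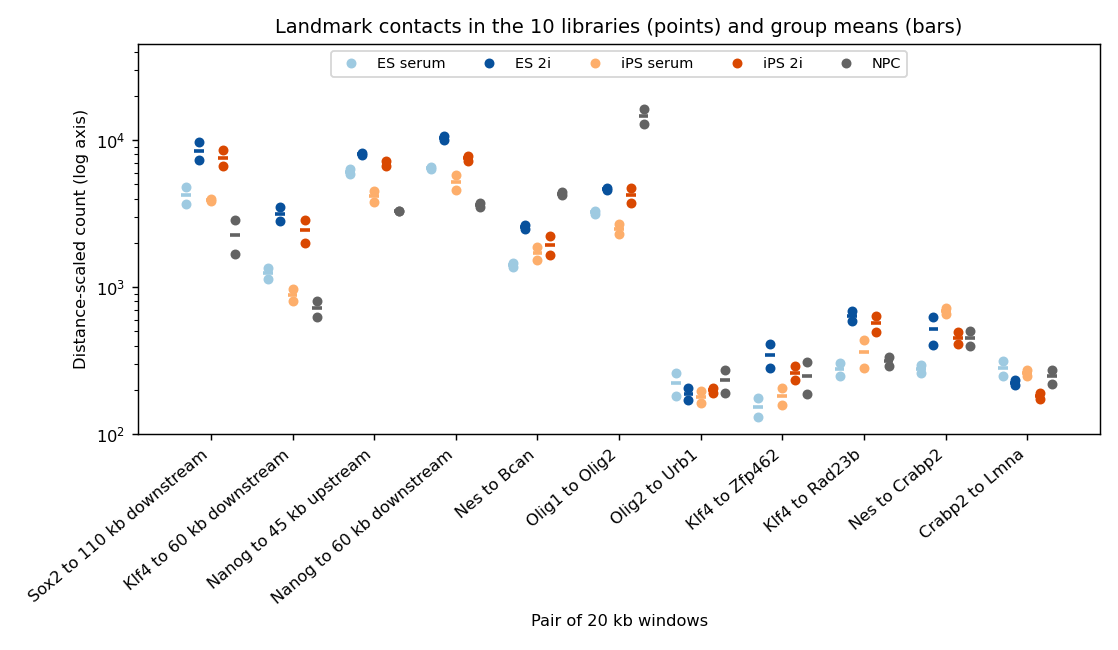
Distance-scaled counts (vertical log axis) of the 11 landmark pairs of 20 kb windows, 1 point per library and a bar at each group mean. ES 2i and iPS 2i points lie close together at Sox2 (9624 and 7292 against 8562 and 6632), while NPC stand apart at Olig1 to Olig2 (16201 and 12765).

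The authors also deposited distance-corrected contact values on a log scale, in bins of 20 kb, and these gave a second reading of 10 of the landmarks. At Sox2 and its control region the authors' values were 1.58 and 1.59 in ES 2i and 1.48 and 1.70 in iPS 2i, a difference of 0.0049 with a standard error of 0.18. The libraries in serum stood at 1.66 and 1.47 in ES and 0.67 and 1.05 in iPS, without overlap. The scaled counts of the same libraries did overlap, at 4818 and 3658 in ES and 3823 and 3944 in iPS (log2 difference -0.13, edgeR adjusted p = 0.75). At Klf4 and its downstream enhancers ES 2i had 1.31 and 1.01 and iPS 2i 0.78 and 0.55, a difference of -0.50 on that log scale (limma adjusted p = 0.49). Groups did not overlap in these values at Klf4, where the scaled counts did. limma called 0 of 152941 pairs of bins between iPS 2i and ES 2i (0%), with 14981 under an unadjusted p of 0.05, and neighbouring bins share data because they overlap.

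Seen from single genes, contacts were followed from the 20 kb window of each of 13 gene starts to every partner window of its region. No partner window was called for any of the 13. For Sox2, Zfp462 and Bcan the counts of the window itself came from fragments other than that of the gene start. The Pou5f1 window had the most one-sided profile: its 89 partners had a median log2 difference of -0.38, with 16 lower and 0 higher in iPS 2i at an unadjusted p under 0.05. The median was -0.54 in the replicates numbered 1 and -0.17 in those numbered 2, and with primer totals in the expected count it turned to 0.076. Pou5f1 encodes the factor Oct4. The HindIII fragment that holds its start (chr17:35641100-35643151) had a scaled total of 49711 and 33438 in ES 2i and 25384 and 33619 in iPS 2i, so the groups overlapped. Its difference was -0.49 with a standard error of 0.19 (edgeR adjusted p = 0.37).
Rad23b, a DNA repair gene in the Klf4 region, had 50 partners with a median of -0.24, 7 of them lower and 0 higher at that level. In serum 26 of the same 50 partners were called higher in iPS cells, beside 68 of 1255 window pairs in the Klf4 region and 750 of 10916 over all. The total of the Rad23b start fragment, which lies in that window, was itself called higher in serum (log2 difference 0.85, edgeR adjusted p = 0.016). Crabp2 had 54 partners with a median of -0.23, again 7 lower and 0 higher. Both medians turned to 0.11 with primer totals. The fragment of its start had totals of 24610 and 24201 in ES 2i and 19358 and 19324 in iPS 2i, a difference of -0.34 (standard error 0.11, adjusted p = 0.37) with replicates closer to each other than the groups. Sox2 partners had a median of -0.20 over 50 windows, with 3 lower and 0 higher. In the other direction stood Urb1, a ribosome assembly gene, with a median of 0.099 over 58 partners, 5 higher and 1 lower, Bcan with a median of 0.064, 5 higher and 4 lower, and Lmna with a median of 0.14, 0 higher and 1 lower. Partners of Klf4 and Nanog had medians of 0.012 and -0.031. Of the 13 windows, 9 had a median below 0, and with primer totals 2 did, at medians between -0.022 and 0.16.

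Fragment totals summed each primer over its partners in the region, and edgeR called 0 of 1544 fragments (0%), as did DESeq2. Under an unadjusted p of 0.05 lay 200 fragments (13.0%), 120 higher and 80 lower in iPS 2i. The interval lay within a doubling and a halving for 1432 fragments. The fragment with the lowest p, chosen after its values were seen, lay at chr6:122710717-122719232, in the window 60 kb downstream of Nanog that is described above. Its scaled total was 35801 and 33670 in ES 2i and 22918 and 23253 in iPS 2i. The difference was -0.59 with a standard error of 0.13, and the edgeR adjusted p was 0.37. A fragment of the Oct4 region at chr17:35887463-35889309 was the strongest in the other direction, with 9061 and 11185 in ES 2i and 14890.5 and 16561 in iPS 2i. Another lower fragment, at chr3:88338308-88341362, overlapped Mex3a, with 21521 and 16124 against 10537 and 13086.

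The window pairs nearest to a call were picked in each region after their values were seen, from those with a mean of at least 100 counts and no overlap between the groups. In the Nestin region the windows of Etv3 and Arhgef11, 160 kb apart, had 206 and 221 scaled counts in ES 2i and 460 and 407 in iPS 2i. That pair was 1.02 higher on the log2 scale, with a standard error of 0.22. The windows of Cct3 and Mex3a, 240 kb apart, went the other way, with 1918 and 1693 in ES 2i and 1025 and 1022 in iPS 2i. In the Oct4 region a window pair 220 kb apart that ends at Cdsn was 0.85 higher (266 and 295 against 469 and 544). A pair 280 kb apart that ends at Mrps18b and Ppp1r10 had a difference of -0.67 (1343 and 1354 against 868 and 822). The adjusted edgeR p of each of these 4 was 0.55. DESeq2 called the Etv3, Cct3 and Ppp1r10 pairs, at adjusted p of 0.049, 0.032 and 0.049, and 3 of its 10 window calls had an end in the window of Mex3a.
The 2 single pairs called by DESeq2 were both higher in iPS 2i. The first joined fragments at chr4:55732882-55734212 and chr4:55755306-55756674, at higher coordinates than Klf4, with 104 and 114 scaled counts in ES 2i and 345 and 288 in iPS 2i. The second joined chr3:34196009-34197110 and chr3:34235733-34236154 in the Sox2 region, with 41.6 and 62.1 against 161 and 196. In both, ES cells in serum stood higher than either 2i group, at 740 and 801 and at 267 and 331. edgeR gave both an adjusted p of 0.96.

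How contacts spread over distance was compared as the share of each region's counts in 37 bands of distance. No band was called by edgeR (0 of 37, 0%) or DESeq2, and 0 bands had an unadjusted edgeR p under 0.05. Differences ran from -0.32 to 0.35 on the log2 scale, and the 95% interval lay within a doubling and a halving in all 37. Contacts under 50 kb made up 66.7% and 61.8% of the Sox2 region in ES 2i and 67.5% and 58.1% in iPS 2i. In the Oct4 region they made up 40.4% and 38.0% against 41.8% and 36.5%. The groups overlapped in both. In both groups and all 7 regions the replicate numbered 1 had the larger share under 50 kb. Groups did not overlap in 3 bands: 250 to 500 kb in the Oct4 region (10.2% and 10.7% against 9.30% and 9.94%) and over 1000 kb in the Nestin and Olig1-Olig2 regions, where shares were under 0.1%.

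**Figure D2:**
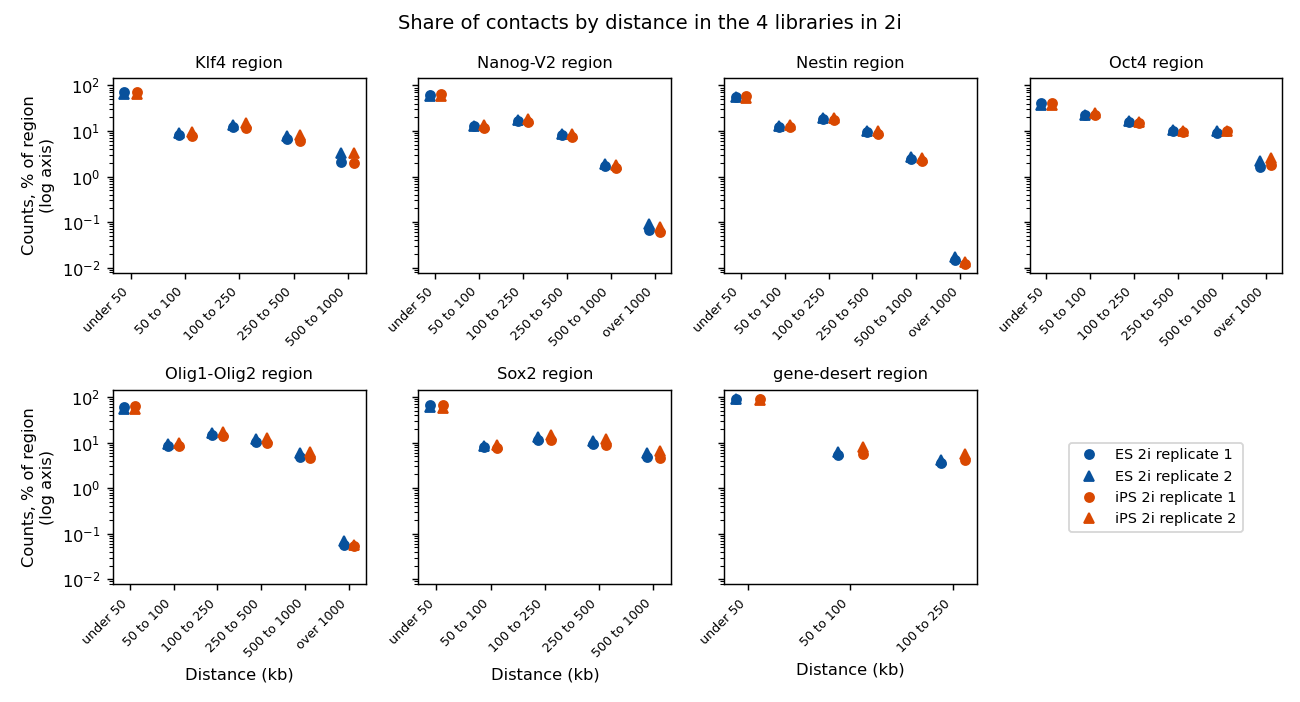
Share of each region's counts (percent, log axis) by distance between fragments (kb) in the 4 libraries in 2i, with circles for replicates numbered 1 and triangles for those numbered 2. Points of ES 2i and iPS 2i coincide in most bands, for example near 40% under 50 kb in the Oct4 region.

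The window pairs differed by whether they held a gene start, a feature that the choice of pairs did not use. The 7034 window pairs without a gene start had a median of 0.012 between iPS 2i and ES 2i. With a start in 1 of the windows the median was -0.059 over 3224 pairs, and with a start in both it was -0.16 over 658 pairs, of which 29.9% were above 0, beside 47.7% of all window pairs. Within the replicates numbered 1 the median of the last set was -0.15, and within those numbered 2 it was -0.17. The Oct4 region supplied 442 of these 658 pairs, with a median of -0.18, and the Nestin region 144, with -0.15. In the Nanog region the 21 such pairs had a median of 0.10. With the total of both primers added to the expected count, the median of the 658 became 0.029, beside 0.024 over all window pairs. No test was run on these medians, since window pairs share fragments.
Medians were also taken for each 20 kb window over its partners. The lowest lay at chr16:90711387-90731386 in the Olig1-Olig2 region and held the start of Mis18a, a centromere licensing gene that the files name 2610039C10Rik. Its 54 partners had a median of -0.95, none was above 0, and 28 were lower at an unadjusted p under 0.05. The size differed between numbers, at -1.496 in the replicates numbered 1 and -0.55 in those numbered 2. This window rested on 1 fragment, and its median was 0.063 with primer totals in the expected count. Its pair with the next window was called by DESeq2, and by edgeR without iPS 2i replicate 2 (adjusted p = 0.023). At the other end a window of the Oct4 region at chr17:35508607-35528606, also of 1 fragment, had a median of 0.45 over 85 partners, 75 of them above 0, which turned to -0.037 with primer totals.

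The comparison in serum shares no library with the one in 2i, so its calls were read in the 2i values. In serum edgeR called 4075 pairs (5.37%), 2951 higher and 1124 lower in iPS than in ES cells, and 1030 window pairs (9.44%), 750 higher and 280 lower. The pair count fell to 1048 without ES replicate 1, 1463 without ES replicate 2 and 1341 without iPS replicate 2. In 2i the 750 window pairs had a median of -0.14 with 29.6% above 0, where their median in serum was 0.98. The 280 window pairs that were lower in serum had a median of 0.098 in 2i with 65.7% above 0, beside -0.79 in serum. Over all window pairs the 2i median was -0.020 with 47.7% above 0. In 2i both medians had the sign opposite to the one in serum. Same-numbered libraries gave -0.11 and -0.17 for the 750, and 0.13 and 0.10 for the 280. By region the median of the 750 in 2i ran from -0.17 in Olig1-Olig2 to 0.026 in Nanog. That of the 280 ran from -0.094 in Klf4 to 0.22 in Nestin. In Klf4 and in Nanog (-0.017) it kept the sign it had in serum.
NPC are the source cells of the iPS line, and NPC against ES in serum also shares no library with the 2i comparison. It gave 13503 called pairs (17.8%) and 3676 called window pairs (33.7%). The pair count was 6421 without ES replicate 2 and 7547 without ES replicate 1. The 1945 window pairs higher in NPC had a median of -0.15 between iPS 2i and ES 2i, with 30.1% above 0. Those lower in NPC, 1731 window pairs, had a median of 0.13, with 68.4% above 0. With primer totals in the expected count, these medians became 0.020 and 0.046.

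**Figure D3:**
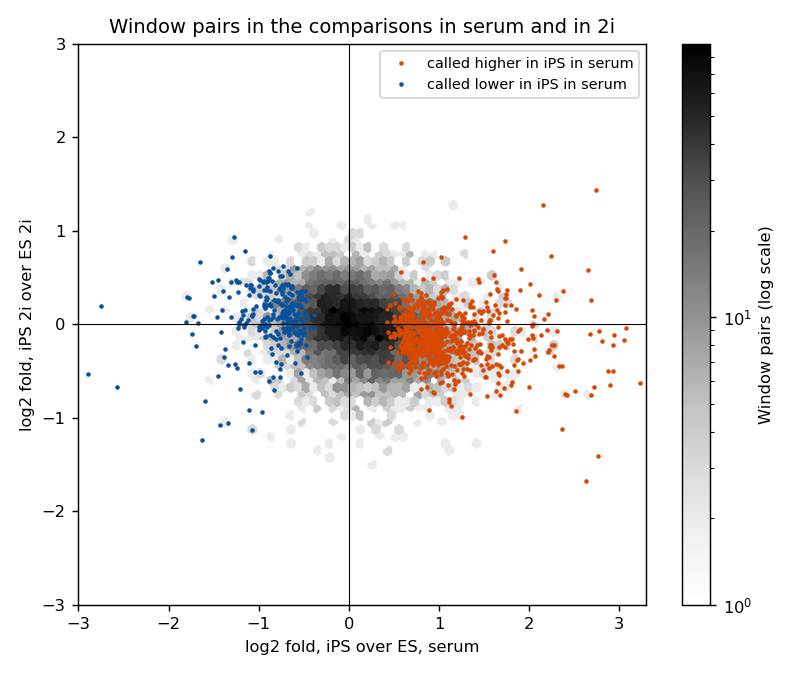
Log2 fold of iPS over ES for 10916 window pairs, in serum (horizontal) and in 2i (vertical). Grey shows all window pairs, orange the 750 called higher and blue the 280 called lower in serum, whose medians in 2i are -0.14 and 0.098.

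The difference between the media was tested as a difference of differences. edgeR called 1576 pairs (2.08%) and 572 window pairs (5.24%), of which 183 had a higher and 389 a lower iPS to ES difference in 2i than in serum. Without single libraries the window count was 95 (ES replicate 1), 114 (ES replicate 2), 87 (iPS replicate 2), 241 and 264 (ES 2i replicates 1 and 2) and 322 and 340 (iPS 2i replicates 1 and 2). Of the landmarks, Nes to Crabp2 passed: its difference was 1.31 in serum and -0.19 in 2i, a gap of -1.51 (standard error 0.32, edgeR adjusted p = 0.016). Its scaled counts were 259 and 294 in ES, 656 and 719 in iPS, 405 and 624 in ES 2i and 408 and 492 in iPS 2i. The fragment of the Crabp2 start gave none of these counts, since it and the Nes start fragment both had reverse primers. All of these counts came from the Nes start fragment, on which the Nes window rested alone. In the Klf4 region the windows of Rad23b and of chr4:55516446-55536445, beside Klf4, stood 1.18 higher in serum and -0.64 in 2i (gap -1.82, edgeR adjusted p = 0.0096). In the Olig1-Olig2 region the windows of Tmem50b and Son had 1.73 in serum and -0.68 in 2i.
Fragment totals moved too: 360 fragments were called in serum (23.3%) and 284 for the difference between media (18.4%), beside 0 in 2i. With the totals of both primers in the expected count, the calls fell to 23 pairs (13 higher) in serum, and to 1 pair and 1 window pair for the difference between media. In the authors' distance-corrected bins, where limma was the test, 12217 of 152941 pairs of bins were called in serum (7.99%) and 4033 for the difference between media (2.64%). With primer totals the median over all pairs in serum moved from 0.18 to 0.011. Under the setting with primer totals the 750 and 280 window pairs had medians of 0.040 and 0.022 in 2i and of 0.095 and -0.17 in serum. Primer yield and real change of a whole fragment cannot be told apart here.

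**Figure D4:**
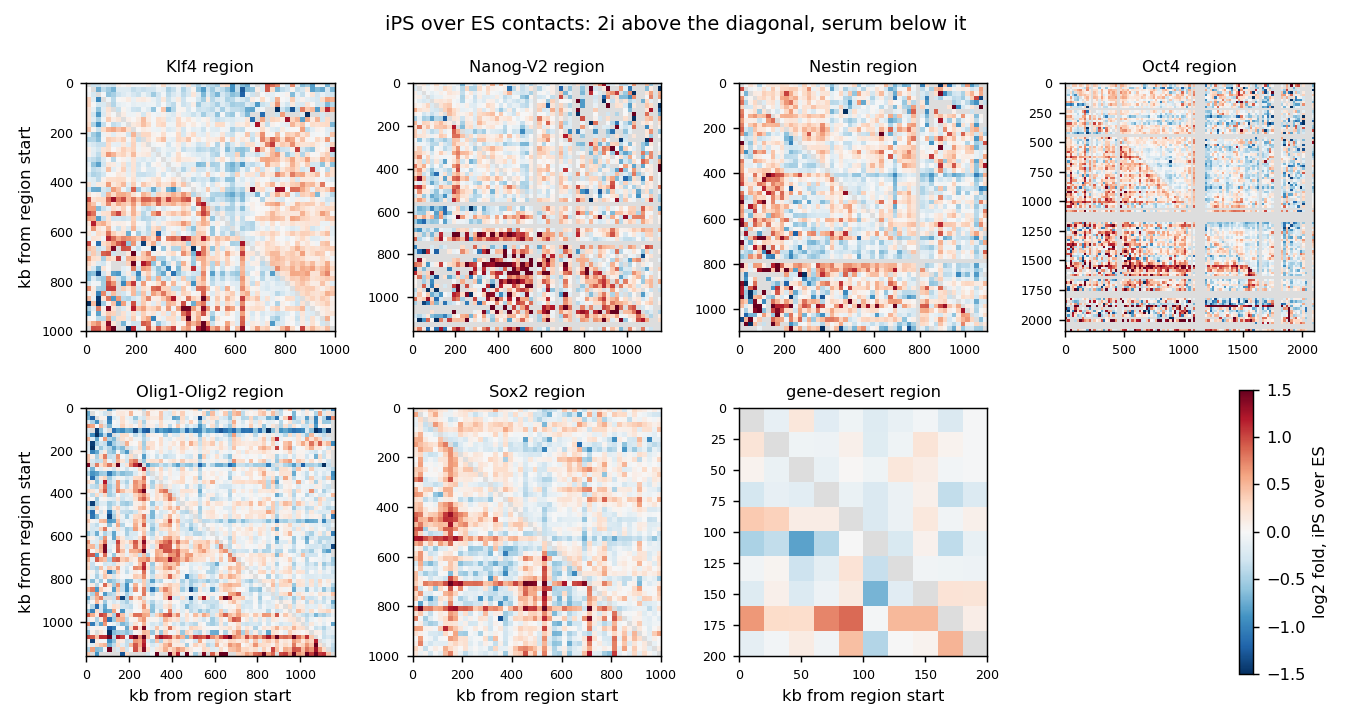
Log2 fold of iPS over ES for pairs of 20 kb windows in the 7 regions, with 2i above the diagonal and serum below it, in kb from the region start, colours ending at 1.5 on either side and grey where no value was tested. A line of red in serum marks the Rad23b window of the Klf4 region (26 of 50 partners called higher, beside 750 of 10916 window pairs). A line of blue in 2i marks the Mis18a window of the Olig1-Olig2 region (median -0.95).

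RNA of the same groups gave another readout of these genes. In bulk RNA fewer cells of a type and less RNA per cell cannot be told apart. edgeR called 2794 of 11031 transcript models between iPS 2i and ES 2i (25.3%), and 1463 without ES 2i replicate 1 and 1618 without iPS 2i replicate 1. Reads in no model made up 35.7% and 28.2% in ES 2i and 65.02% and 37.4% in iPS 2i. Of the 112 named genes of the 5C regions, 104 were measured, and 21 rose and 10 fell in iPS 2i, where 15.3% of all 9372 named models rose and 12.3% fell.
Of these genes Crabp2 had the largest difference, from 6.77 and 6.69 CPM (counts scaled to a common library total) in ES 2i to 126 and 138 in iPS 2i, a log2 difference of 4.30 (standard error 0.16). The contacts of its start window with those of Nes and Lmna were not called in 2i, as given above. Lmna rose from 25.9 and 27.2 to 57.6 and 59.1 CPM. Pou5f1 rose from 848 and 974 to 1479 and 1507 CPM, a difference of 0.71, beside a median of -0.38 for the contacts of its window, or 0.076 with primer totals. Sox2 fell by 0.75 on the log2 scale, from 627 and 476 to 329 and 327 CPM, and the model named Nanogpd in the Nanog region fell by 1.17, from 72.4 and 59.3 to 33.6 and 25.6 CPM. Whether the reads of that model are those of Nanog was not settled. Klf4 had 161 and 156 CPM in ES 2i and 150 and 152 in iPS 2i, a difference of -0.074 that was not called. Olig1 and Olig2 rose by 1.00 and 0.68, to 18.0 and 13.9 CPM and to 29.7 and 27.7 CPM. Zfp462, a zinc finger gene, fell by 0.81, and Rad23b by 0.40, a call that was lost without ES 2i replicate 1 (adjusted p = 0.099), iPS 2i replicate 1 (0.066) or iPS 2i replicate 2 (0.065). Nes, Bcan, Urb1 and Mis18a did not pass the test. Of these, Nes and Bcan were hardly detected. Nes had 0.19 and 0.13 CPM in ES 2i and 0.41 and 0.51 in iPS 2i, and Bcan 0.063 and 0.13 against 0 and 0.20. Urb1 had 222 and 232 CPM against 209 and 207, and Mis18a 60.8 and 56.8 against 57.0 and 55.3.

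**Figure D5:**
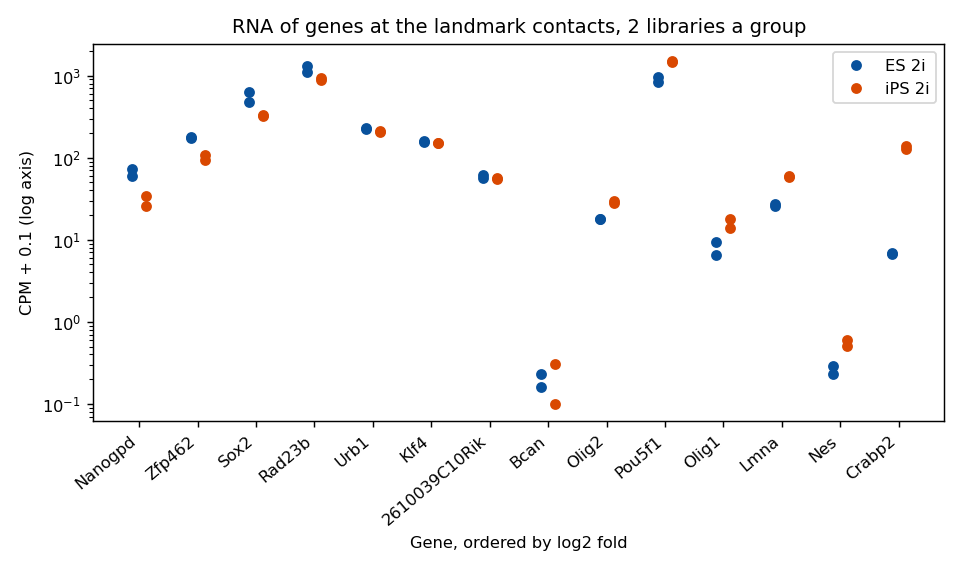
RNA level (CPM plus 0.1, log axis) of 14 genes, those of the landmark contacts with Pou5f1 and Mis18a (2610039C10Rik) added, in the 2 libraries of ES 2i and of iPS 2i, in the order of their log2 difference. Crabp2 stands at the right with 6.77 and 6.69 against 126 and 138 CPM, and points of Klf4 and Urb1 nearly coincide.

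For 79 genes with a known start and a measured model, the start window's contacts could be set beside the RNA. Some of these genes share a start window, and the same value can then enter different classes. An example is 0610031J06Rik, which rose, and Smg5, which fell, both at -0.29. Start windows of the 17 genes whose RNA rose had a median contact difference of -0.11, with 4 above 0. Those of the 9 genes whose RNA fell had -0.20, with 2 above 0, and those of the other 53 had -0.064, with 22 above 0. The 3 ranges overlapped, from -0.38 to 0.14, from -0.44 to 0.043 and from -0.95 to 0.23.
Of 20 genes for proteins that shape chromosome folding, 12 were measured. Of these 1 rose and 2 fell, where 15.3% of all named models rose and 12.3% fell. The median of the 12 was -0.24, beside 0.0062 over all named models. Rad21, a cohesin subunit, fell by 0.89 from 484 and 429 to 208 and 283 CPM. Yy1, a factor known to link promoters and enhancers, fell by 0.45, and Ring1, a Polycomb subunit, rose by 0.48. Both calls were lost under DESeq2 (adjusted p = 0.075 and 0.054), Yy1 also without ES 2i replicate 1 (0.40) or iPS 2i replicate 1 (0.17), and Ring1 without any 1 of the 4 libraries (0.11 to 0.17). Ctcf had 4.14 and 3.12 CPM in ES 2i and 3.48 and 2.03 in iPS 2i, a difference of -0.48 that did not pass. Smc1a and Smc3, the cohesin core, had differences of -0.19 and -0.030, not called.
The labelled cell kinds were checked by markers, whose counts stand beside the 15.3% rising and 12.3% falling over all named models. Of 10 pluripotency markers 9 were measured, and their summed level was 4916 and 5146 CPM in ES 2i and 6575 and 6542 in iPS 2i; Pou5f1, Dppa5a and Utf1 rose, and Sox2, Nanogpd and Esrrb fell. Calls of Utf1 were lost without ES 2i replicate 1 (adjusted p = 0.14) or iPS 2i replicate 1 (0.10). Those of Esrrb were lost under DESeq2 (0.11) and without ES 2i replicate 1 (0.16), iPS 2i replicate 1 (0.12) or iPS 2i replicate 2 (0.057). Of 10 neural progenitor markers 7 were measured, 5 rose and 0 fell. Their sum was 65.03 and 70.8 CPM in ES 2i and 122 and 112 in iPS 2i. NPC had 3684 and 4506 CPM of Olig1 alone, and 1699 and 1953 of Ncan. Sox1 was the largest part of the iPS 2i sum, at 54.5 and 49.8 CPM. It had 80.4 and 101 CPM in NPC and 270 and 240 in iPS cells in serum. Feeder fibroblast markers also stood higher in iPS 2i than in ES 2i. Of these, 6 of 7 measured rose and 0 fell, with sums of 465 and 476 CPM against 937 and 966. Acta2 had 158 and 161 CPM against 356 and 376, and Col3a1 116 and 116 against 232 and 226. No named model stood for Pax6, Fabp7, Gfap, Postn, Dcn, Lum or Zfp42. The part of feeder or neural cells in the contact differences was not tested.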

How the data were processed

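5C was measured in 10 libraries and RNA in 10, in ES cells, ES cells in 2i, NPC, iPS cells and iPS cells in 2i, with 2 libraries of each kind a group; groups and replicate numbers come from the labels. The submitters' processing notes name Bowtie, TopHat, TopHat2 2.1.0, HTSeq and mm9, without roles. The deposited 5C counts are raw reads per primer pair and the deposited RNA counts raw reads per transcript model. The authors also deposited log contact values in 20 kb bins at 4 kb steps, binned and corrected for distance. Whether these deposited values are log2 or have another base is not given in the sources used here.

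Pairs with a mean of at least 10 counts were kept. Each pair's expected count started from the total of its library, region and 1 of 20 strata of distance. That total was multiplied by the pair's mean share of its stratum over the libraries. The logarithm of the expected count entered edgeR 4.0.16 (R 4.3.3) as an offset. Counts and expected counts were summed over 20 kb windows and over fragments. For distance bands the counts were summed and the offset was the region total of the library. The quasi-likelihood test was fitted on all 10 libraries with a group term, and p-values were adjusted by Benjamini and Hochberg over all features, at a threshold of 0.05. Scaled counts are counts divided by the library's expected count relative to its mean over libraries. Intervals are 95% intervals of the fitted log2 difference. RNA was fitted in edgeR with TMM scaling and its default filter on low counts. DESeq2 1.42.0, limma 3.58.1, other strata, windows, filters and scalings, the replicate number as a block, and leaving out single libraries were alternatives. An expected count that also used the total of both primers removes any change of a whole fragment along with primer yield. The edgeR test of iPS 2i against ES 2i was tried on simulated counts of pairs and of 20 kb windows. The other procedures were not tried on simulated data. With 2 libraries against 2, an exact permutation test of a single value cannot go below 0.333, so none was used.

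Landmarks, markers and listed genes were named by a rule whatever their result. The rule for window pairs, pairs and fragments asked for calls past the threshold, and none passed in 2i, so those named there were chosen after their values were seen. The members and lists were chosen with earlier results of these data known.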

Additional observations from a re-analysis of the deposited data

Results flagged for a closer look

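The iPS to ES difference itself differed between 2i and serum, by a test of the difference of differences in edgeR, for 1576 pairs, 572 window pairs and 284 fragments. Among the landmarks this was so for the start windows of Nes and Crabp2, without any count from the Crabp2 start fragment. The Nes window rested on the Nes start fragment alone, which is 33.9 kb long. There the difference in 2i minus that in serum was -1.51 on the log2 scale (standard error 0.32, edgeR adjusted p = 0.016). With primer totals in the expected count, 1 pair and 1 window pair were called.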

How the results depend on the processing

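Between iPS 2i and ES 2i, DESeq2 called 2 pairs and 10 window pairs, primer totals in the expected count called 1 window pair, and leaving out single libraries called 0 to 1 window pairs, where edgeR on all libraries called 0. None of the 217 alternative values of the 11 landmarks passed the test; 24 moved by more than the spread between replicates and 17 changed sign, 7 of them with primer totals. Of the 222 alternative values of distance bands, 33 moved by more than that spread. The sign changed for 16 of these 33 and for 37 of the other 189. With primer totals, calls fell to 23 pairs in serum, to 8691 pairs for NPC, and to 1 pair and 1 window pair for the difference between media. DESeq2 called 3435 pairs for that difference. Leaving out single libraries gave 1048 to 2759 pairs in serum, 6421 to 10812 for NPC, 524 to 1872 pairs and 87 to 676 window pairs for the difference between media, and 1463 to 2622 RNA models. The cause was not tested.

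Replicate numbers are shared between groups, and nothing in the labels says that they mark a pairing. Deviations of same-numbered libraries had a correlation of 0.249 between ES 2i and iPS 2i over window pairs, and -0.031 to 0.13 between other groups. With the replicate block, 0 pairs and 0 window pairs were called in 2i, and 862 window pairs instead of 572 for the difference between media. The 95% interval of single pairs reached a median of 1.12 on the log2 scale to either side. With all libraries thinned to the lowest total, 3735 pairs were called in serum instead of 4075.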
